A study of Mus musculus with 26 samples.

Results

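Lamp2, a gene on the mouse X chromosome that encodes lysosome-associated membrane protein 2, contributed every row that carried its symbol in a bulk and a single-cell list of C-to-U RNA editing sites in macrophages. These were 11 sites of the 526 in the pooled lists. The bulk list held 9 Lamp2 sites of 410, and the single-cell list held 5 of 171. Of the 11, 3 were in both lists, 6 in the bulk list only and 2 in the single-cell list only. The sites were placed on the alternative last exons of the gene, so that editing could be described for each 3′ end of the transcript.

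The study sequenced 26 RNA libraries of bone marrow-derived macrophages to ask whether an editing rate in a population is shared by its cells or averages over cells that differ. There was 1 bulk library of Apobec1 knockout (Apobec1-/-) macrophages, which lack the deaminase, 24 libraries of single wild-type macrophages and 1 bulk wild-type library. All mice were C57BL/6J of 6 to 8 weeks, and the cells grew in macrophage colony-stimulating factor at 20 ng per mL and were harvested after 7 to 9 days. The single cells came from 1 mouse. The lists give no values for the knockout library, which entered only as a filter on the bulk sites, and no read depth for single cells. Because each bulk genotype was 1 library, a p-value on bulk reads compares reads of that library and not macrophage cultures. The lists hold no expression values, so the cell type was not checked against marker genes, and the 24 columns of cells carry no names and are called here by their number in the list.

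APOBEC1 deaminates cytidine to uridine in RNA, mostly in AU-rich 3′ untranslated regions, and in apolipoprotein B mRNA it acts with a protein cofactor at a cytidine followed by a so-called mooring sequence. LAMP-2 is a heavily glycosylated protein of the lysosomal membrane with 1 transmembrane segment, needed for the fusion of autophagosomes with lysosomes. Its gene ends in alternative last exons that each encode a transmembrane segment and a short cytosolic tail, which gives the isoforms LAMP-2A, LAMP-2B and LAMP-2C. LAMP-2A is known as the receptor for chaperone-mediated autophagy, in which the chaperone Hsc70 delivers cytosolic proteins to the lysosome one at a time.

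The 11 sites fell in the 3′ untranslated regions of LAMP-2A and LAMP-2B, and none in that of LAMP-2C. In the GENCODE vM21 annotation of GRCm38 (mm10) each of these is exon 9 of its transcript on the minus strand. The LAMP-2A exon (chrX:38405062-38405571) has an untranslated region of 370 nt and held 2 sites, both from the bulk list. The LAMP-2B exon (chrX:38419507-38421851) has one of 2205 nt and held 9 sites, 7 of them in bulk and 5 in single cells. The LAMP-2C exon (chrX:38401357-38402281) has one of 782 nt in GENCODE and of 2492 nt in RefSeq, where it reaches to 38399647. The lists give read counts only at listed sites, so the coverage of the LAMP-2C region is unknown. Its lack of sites therefore does not show that it was unedited. In transcript order LAMP-2B comes first, then LAMP-2A, then LAMP-2C. The isoforms were named from the reading frame of each last exon. Among RefSeq models, variants 1 and 4 end in the LAMP-2A exon, variant 2 in that of LAMP-2B and variant 3 in that of LAMP-2C. Distances to an annotated end are to the GENCODE end unless RefSeq is named.

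Sequences are printed for the 2 LAMP-2A sites, for the most edited LAMP-2B site and for the 5 sites measured in single cells, because the results turn on these. They are the RefSeq GRCm38 sequence of the minus strand, 5′ to 3′, and the capitals mark each edited C with the base just before it. The stretch for LAMP-2A is chrX:38405070-38405099 and holds both of its sites, 38405092 first and then 38405078. The LAMP-2B stretches run from 10 nt before the edited C to 19 nt after it and are named by the position of the C and its distance after the stop codon.
LAMP-2A, 38405092 (340 nt after the stop codon) and 38405078 (354 nt): tatcttACtggaattaataaACactgcttg
LAMP-2B, 38421565 (147 nt): attccaaatACtatcaactacaaatgaatc
LAMP-2B, 38420739 (973 nt): tttgcattgACtgctacagcacttactaat
LAMP-2B, 38420548 (1164 nt): cagcccgatACttaacacatcatgtattcc
LAMP-2B, 38419800 (1912 nt): agtttatgtACcgctatttacactattatt
LAMP-2B, 38419766 (1946 nt): atagacaatACacactgtctttgtagtttt
LAMP-2B, 38419589 (2123 nt): agctgatgtACgtacgatatctcttctcag

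The edited C followed an A at 11 of 11 Lamp2 sites and at 436 of the 515 sites of other genes in the pooled lists (84.7%). Of all C in the untranslated regions, 24 of 63 (38.1%) follow an A in LAMP-2A, 113 of 381 (29.7%) in LAMP-2B and 37 of 133 (27.8%) in LAMP-2C, or 116 of 457 (25.4%) to the RefSeq end of LAMP-2C. The 2 bases before the edited C were TA at 7 of 11 Lamp2 sites, against 156 of 515 sites of other genes (30.3%). The letters TGAT, with which the mooring sequence of apolipoprotein B opens, were searched on the transcript strand in the 19 nt after each edited C. They were found at 0 of 11 Lamp2 sites and 58 of 515 sites of other genes (11.3%). The share was between 6.77% and 7.94% of all C in the 3 untranslated regions of Lamp2 (10.9% in LAMP-2C to its RefSeq end). These shares are descriptions of the sequence and were not tested.

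The LAMP-2A site at 38405078 lay directly behind the letters AATAAA, the usual signal for polyadenylation, and 16 nt before the annotated end of the transcript. The same letters stood directly before the edited C at 1 of the 515 sites of other genes in the pooled lists (0.194%). They were anywhere in the 30 nt window at 10 of them (1.94%). The other LAMP-2A site, 14 nt upstream, shares that window, so AATAAA was in the window of 2 of 11 Lamp2 sites. The LAMP-2A sites lay 16 and 30 nt before the GENCODE end of the transcript and 29 and 43 nt before its RefSeq end, whereas the LAMP-2B sites lay 82 to 2058 nt before the GENCODE end. The 30 nt windows held a median of 60.0% A and T at the Lamp2 sites, against 66.7% at the sites of other genes in the pooled lists.

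At the LAMP-2A end, the 2 bulk sites had 32 and 20 reads, and 13.5% of the reads summed over them were edited. The site at 38405092 was edited in 5 of 32 reads, or 15.6% (95% interval 5.28 to 32.8, exact Clopper-Pearson). The site at 38405078 was edited in 2 of 20 reads, or 10.0% (1.23 to 31.7). The intervals overlap over most of their length, and since the sites are closer than a 100-nt read many reads can cover both. All intervals cover counting error only, because reads are not independent molecules. No LAMP-2A site was in the single-cell list, which keeps sites edited in at least 3 cells, so the LAMP-2A end has no rate in single cells here.

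The LAMP-2B end held the most edited Lamp2 site. At 38421565, the site nearest the stop codon, 10 of 26 bulk reads were edited, or 38.5% (20.2 to 59.4), which ranked 7th of the 410 bulk rates. The other 6 bulk sites of this end were edited at 10.2 to 15.4%. At 38420211, which lies 1501 nt after the stop codon, 10 of 65 reads were edited, or 15.4% (7.63 to 26.5). These 2 sites had the same number of edited reads at very different depths.

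Of the remaining LAMP-2B sites, 38420630 (1082 nt after the stop codon) was edited in 4 of 31 reads, or 12.9% (3.63 to 29.8). At 38420739 it was 3 of 26 reads, or 11.5% (2.45 to 30.2). At 38420513 (1199 nt) it was 4 of 35 reads, or 11.4% (3.20 to 26.7). The 2 bulk sites nearest the annotated end were also the lowest of the LAMP-2B sites in bulk. At 38419589 the rate was 7 of 67 reads, or 10.4% (4.30 to 20.3), and at 38419800 it was 6 of 59 reads, or 10.2% (3.82 to 20.8). Depth was 59 to 67 reads at the 3 sites within 704 nt of the annotated end and 26 to 35 reads at the 4 sites farther upstream.

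**Figure D1:**
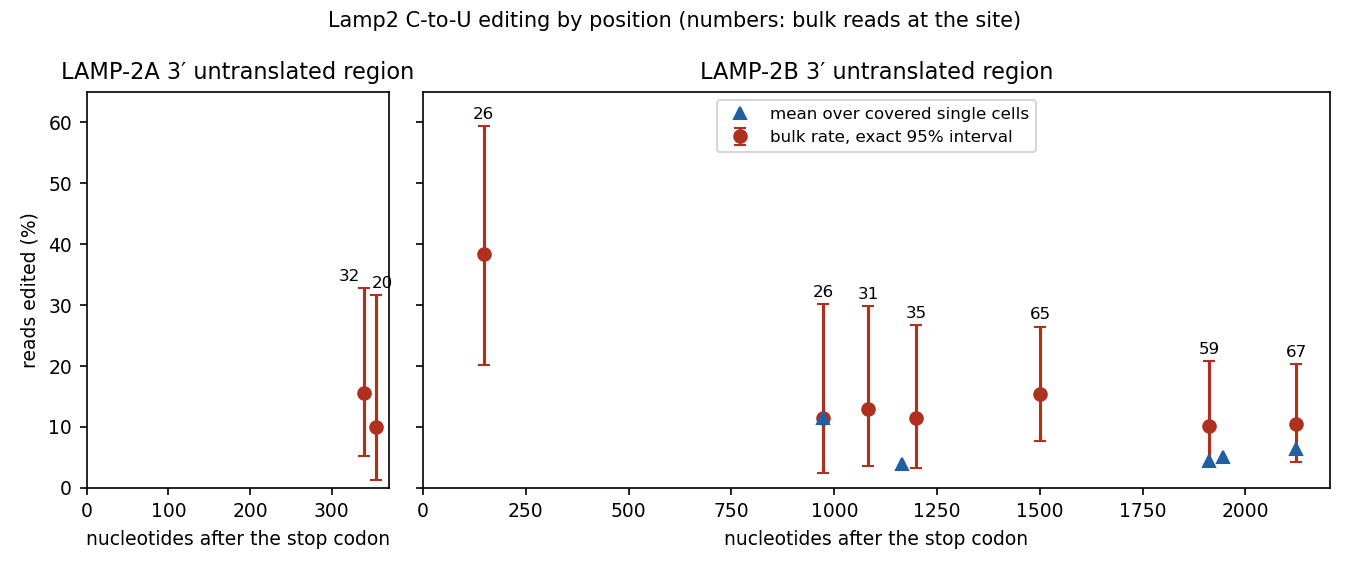
Editing rate (percent of reads edited) at each Lamp2 site against its distance in nt after the stop codon, in the LAMP-2A 3′ untranslated region (left) and the LAMP-2B one (right). Triangles are means over covered single cells, circles are bulk rates with exact 95% intervals, and the numbers are bulk reads: the circle at 147 nt is at 38.5% and the other 8 lie between 10.0% and 15.6%.

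In depth and rate the Lamp2 sites were close to the rest of the bulk list. Its 9 sites had a median of 32 reads (20 to 67), against a median of 30 (17 to 108) at the 401 sites of other genes. The median rate was 11.5% for Lamp2 (10.0 to 38.5), against 11.8% for the others (5.0 to 88.9). Summed over its sites, 51 of 361 Lamp2 reads were edited. The authors filtered on depth, edited reads and the size of the difference from the knockout, so weakly edited sites of either end are not in the list.

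**Figure D2:**
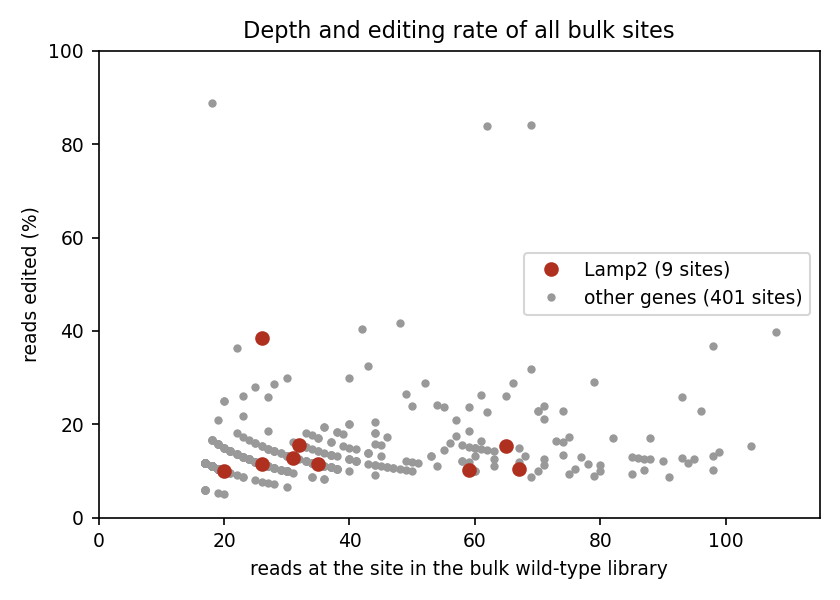
Percent of reads edited against the number of reads at the site, for the 9 Lamp2 sites (large points) and the 401 bulk sites of other genes (small points) in the bulk wild-type library. The Lamp2 sites lie among the others in depth, at 20 to 67 reads, and 1 of them stands at 38.5%.

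To ask whether the ends differed, edited reads were summed over the sites of each end. The LAMP-2A end had 7 edited reads of 52, or 13.5% (5.59 to 25.8), and the LAMP-2B end had 44 of 309, or 14.2% (10.5 to 18.6). The difference, LAMP-2A minus LAMP-2B, was -0.778 percentage points (Fisher's exact test, two-sided, p = 1.0, 0 pairs called, 0 with an unadjusted p under 0.05). The 2 LAMP-2A sites are 14 nt apart, so a read over both is counted at each. The test and the interval take the 52 as separate reads and are narrower than the reads warrant. A difference of several points was not detectable at this depth. Weakly edited sites of both ends were removed by the authors' filter and enter neither sum. Without its most edited site the LAMP-2B end was at 34 of 283 reads, or 12.0% (8.47 to 16.4), and the difference was 1.45 points in the other direction (Fisher's exact test, two-sided, adjusted p = 0.818).

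Lamp2 was the one gene for which this comparison existed. Of the 70 genes with 2 or more bulk sites, 1 had sites in more than one last exon, and so 1 pair of ends was tested and 0.0% of pairs were called. The largest gap between neighbouring Lamp2 sites was 14497 nt, from the LAMP-2A to the LAMP-2B end, against a median largest gap of 186.5 nt over the 70 genes. It ranked 2nd. In Lpl, which encodes lipoprotein lipase, the gap was 22241 nt, but there the far site was intronic (2 of 19 reads) and the others, at 12.9% and 10.2%, lay in 1 untranslated region. In Tm9sf3, which encodes a transmembrane protein of the nonaspanin family (gap 4094 nt), and in Kctd12, which encodes an auxiliary subunit of the GABA-B receptor (1751 nt), the sites shared a last exon.

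Site by site, no pair of Lamp2 sites differed past the adjusted threshold in bulk. Fisher's exact test was run on all 318 pairs of sites of one gene, and it called 12 of them (3.77%), in 4 genes, at an adjusted p under 0.05. Of the 36 Lamp2 pairs it called 0, and 6 had an unadjusted p under 0.05. A count of 0 among 36 pairs is close to that background.

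All 6 of those pairs included the site at 38421565. The lowest p, 0.00499, was that for 38419800 (10.2%) and 38421565 (38.5%), with an adjusted p of 0.0961 (exact, two-sided). Over its 8 pairs the adjusted p lay between 0.0961 and 0.664. Over the 28 pairs without it the unadjusted p was 0.432 or more and the adjusted p 1.0 throughout. The rates of the other 8 bulk sites, in both ends, showed no difference detectable at this depth. They lay at 10.0 to 15.6%, and the authors' filter had removed weakly edited sites, so the test cannot say how alike unselected sites are.

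When sites were grouped by distance alone, with a new group wherever neighbours lay over 500 nt apart, Lamp2 split into 3 groups and 5 of the 33 pairs of groups over all genes were called (15.2%). The 6 LAMP-2B sites from 38419589 to 38420739, with 34 of 283 reads edited, differed from 38421565, with 10 of 26, by -26.4 points (Fisher's exact test, two-sided, p = 0.00119, adjusted p = 0.00782). The LAMP-2A sites differed from 38421565 by -25.0 points, which was not called (p = 0.0189, adjusted p = 0.104). The high rate at 38421565 was known when this grouping was chosen. Neighbouring sites of the larger group lay 109 nt or more apart, which is longer than a read, so no read covers a pair of them.

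In single cells, all 5 Lamp2 sites lay in the LAMP-2B end, and each was edited in 3 or 4 cells and listed at 0 in most others. Values are the percentage of a cell's reads that were edited, at a depth that is unknown. The most edited bulk site, at 38421565, was not in the single-cell list.

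The site at 38419589, which lies 82 nt before the annotated end, was covered in 24 of 24 cells. It was at 80.0% in cell column 18, 43.8% in column 22, 23.1% in column 2 and 5.0% in column 9, and at 0 in the other 20. The mean over cells was 6.33% ± 18.5 (SD, n = 24). Without column 18 the mean was 3.12%.

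At 38419766, covered in 22 cells, the rate was 42.9% in column 16, 33.3% in column 9, 20.0% in column 20 and 14.3% in column 14. The mean over covered cells was 5.02% ± 11.9 (SD, n = 22), or 3.22% without column 16. Its neighbour at 38419800, which lies 34 nt upstream, was covered in 19 cells and was at 33.3% in column 14, 30.8% in column 9 and 20.0% in column 19. Its mean was 4.43% ± 10.8 (SD, n = 19), or 2.82% without column 14. Columns 9 and 14 were thus edited at both of these close sites and columns 16, 19 and 20 at 1 of them.

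The sites farther upstream were covered in fewer cells. At 38420548, covered in 16 cells, the rate was 39.4% in column 13, 10.0% in column 8, 6.67% in column 9 and 5.41% in column 4. Its mean was 3.84% ± 9.96 (SD, n = 16), or 1.47% without column 13. At 38420739, covered in 17 cells, the rate was 90.0% in column 12, 70.0% in column 10 and 35.7% in column 16. Its mean of 11.5% ± 27.4 (SD, n = 17) was the highest of the 5, and it was 6.61% without column 12. Both sites lacked coverage in the same 7 cells, and 1 further cell was covered at 38420739 but not at 38420548.

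**Figure D3:**
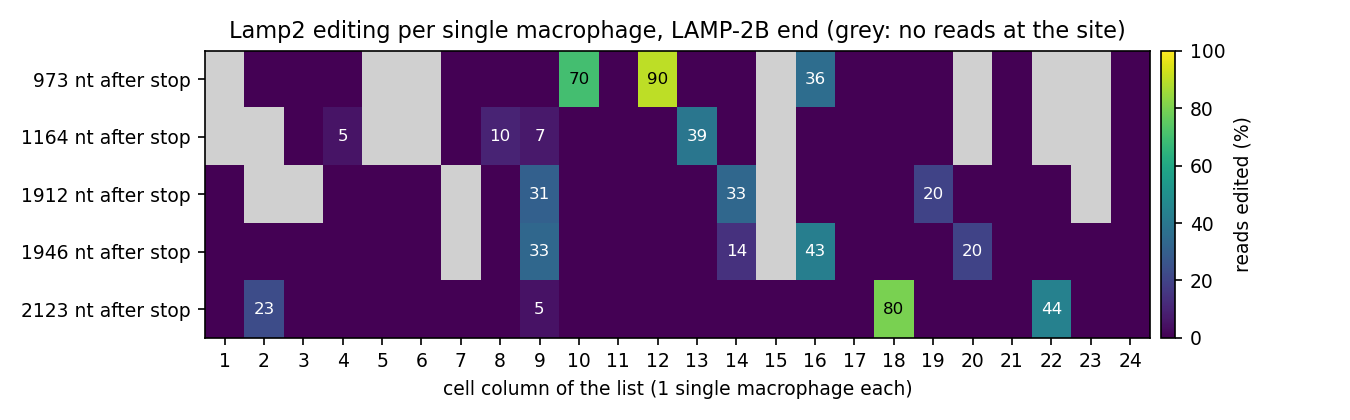
Percentage of reads edited at the 5 Lamp2 sites of the single-cell list (rows, by distance in nt after the stop codon of LAMP-2B) in each of the 24 cell columns. Grey marks cells without reads at the site and printed values are rates above 0: 18 of the 98 covered values are above 0, and cell column 9 is edited at 4 sites.

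Over the 5 sites, 98 of 120 values were covered (81.7%), 18 of these were above 0 and 80 were at 0. The 18 edited values had a median of 32.1% (5.0 to 90.0), and 13 were at 20% or more. Values above 50% were found 3 times, in 3 cells. At every site the median over covered cells was 0, so that the means came from a minority of cells with sizeable listed rates. The read depth of these values is unknown, so few reads per cell cannot be told apart from differences between cells.

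The edited sites were spread over many cells. At least 1 Lamp2 site was edited in 13 of 24 cells (54.2%, 95% interval 32.8 to 74.4, exact Clopper-Pearson), and 11 cells were edited at none. Of the 13, 10 were edited at exactly 1 site, 2 at 2 sites and 1, cell column 9, at 4 sites. In column 9 the rates were 33.3%, 30.8%, 6.67% and 5.0%, and the fifth site, at 38420739, was covered and at 0. Coverage enters these counts: 14 cells were covered at all 5 sites, of which 10 were edited at 1 or more and 3 at 2 or more.

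Pairs of sites were edited together in few cells. The close pair at 38419766 and 38419800 was edited together in 2 cells and at only 1 of the sites in 3 cells (Pearson's r = 0.411 over 19 cells). The other 9 pairs were edited together in 0 or 1 cells, and r lay between -0.248 and 0.0757. These values describe 24 cells of 1 culture in which most rates were 0, and sites 34 nt apart share reads.

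No pair of Lamp2 sites differed past the threshold over cells. A two-sided sign-flip permutation test of the difference within cells was run on 316 pairs of sites of one gene and called 22 (6.96%), in 4 genes. It called 0 of the 10 Lamp2 pairs, and 0 had an unadjusted p under 0.05. The largest difference was -8.39 points, between 38420548 and 38420739 in 16 cells (exact permutation p = 0.375, adjusted p = 0.881). With 5 to 7 cells in which a pair differed at all, the smallest p that the exact test could give was 0.0156 to 0.0625, so the cells give little power to tell these sites apart.

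At the 3 sites in both lists, mean rates in single cells were set beside the bulk rates. At 38420739 the mean was 11.5% over 17 cells, against 11.5% in bulk. At 38419589 it was 6.33% over 24 cells, against 10.4% in bulk, and at 38419800 it was 4.43% over 19 cells, against 10.2% in bulk. Each mean lay within the 95% interval of the bulk rate, as did those of 37 of the 52 shared sites of other genes. The ratio of cells to bulk was 0.998, 0.606 and 0.435 at these Lamp2 sites, and its median at the 52 others was 0.581. The bulk list kept sites past a threshold on their bulk rate, whereas the single-cell list asks for at least 3 edited cells. The shared sites were thus selected on their bulk rate, and the effect of this on the ratio was not tested.

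At all 3 sites these values depended on 1 cell. Without the highest cell the ratio of cells to bulk was 0.573 at 38420739, 0.299 at 38419589 and 0.277 at 38419800. The mean then stayed within the bulk interval at 38420739 and lay below it at 38419589 (3.12%, against a lower bound of 4.30%) and at 38419800 (2.82%, against 3.82%). With uncovered cells set to 0 the mean at 38419800 was 3.50%, also below its bulk interval. At all 3 sites the median over cells was 0 and thus below bulk. The cells and the bulk RNA were prepared with different library methods, and the bulk sites were selected on their bulk rate. Neither can be told apart from a difference between single cells and a population.

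**Figure D4:**
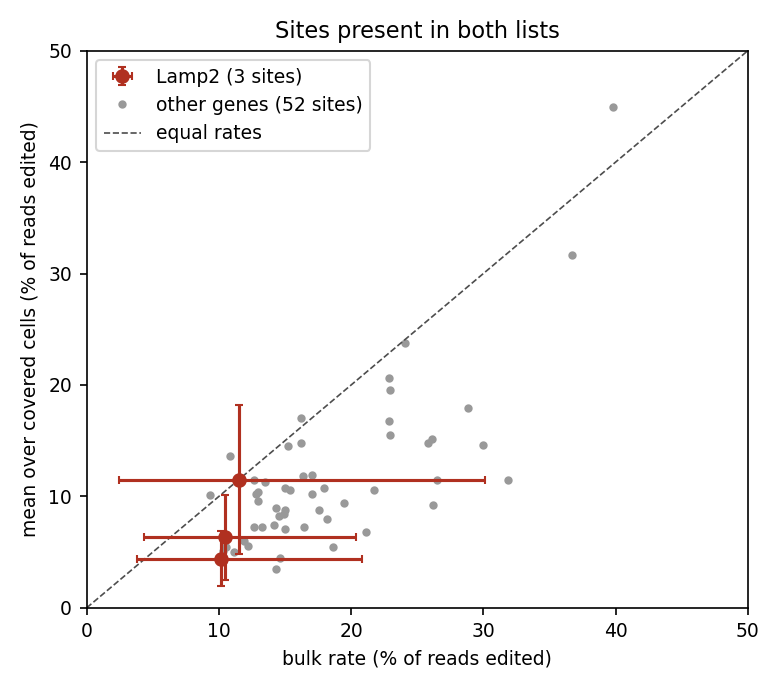
Mean percentage of reads edited over covered single cells against the bulk rate, for the 3 Lamp2 sites (large points, vertical bars SEM over cells, horizontal bars exact 95% intervals) and the 52 other sites in both lists (small points). The dashed line marks equal rates: 1 Lamp2 site lies on it, at 11.5%, and 2 lie below it.

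Within the single-cell list the Lamp2 sites were edited in few cells. All 5 were edited in 4 cells or fewer, and 59 of the 166 sites of other genes (35.5%) were as rarely edited. The number of edited cells at those 166 sites had a median of 6 (3 to 24). Over cells the SD of the rate was 9.96 to 27.4 points at the Lamp2 sites with a median of 11.9, against a median of 14.4 at the others. The highest cell at a Lamp2 site had a median of 42.9%, against 52.8% at the others.

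The mean rate over the Lamp2 sites covered in a cell, from 1 to 5 sites, was compared across cells with that of 76 genes. Each of these genes was covered together with Lamp2 in at least 15 cells. The genes most like it were Antxr2, which encodes an anthrax toxin receptor (r = 0.570, 20 cells), Cybb, which encodes the catalytic subunit of the phagocyte NADPH oxidase (r = 0.511, 24 cells), and Rnase4, which encodes a secreted ribonuclease (r = 0.490, 21 cells). Over the 76 genes r ran from -0.405 to 0.570 with a median of 0.0416, so the 3 named values are high by selection. Cells edited in both genes numbered 4 for Antxr2, 13 for Cybb and 3 for Rnase4. Spearman's rho was 0.526, 0.526 and 0.314 in that order. Without cell column 12, where Rnase4 was at 94.7% and Lamp2 at a mean of 18.0%, r was 0.525 for Antxr2, 0.601 for Cybb and 0.280 for Rnase4. All genes share the same cells and libraries, and the values describe these cells only.

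Of 48 other genes of the lysosomal membrane and of autophagy, 6 had bulk sites, 16 in all, and 42 were in neither list. This is 12.5% of the listed genes, and 263 of the 21900 protein-coding genes of RefSeq (1.20%) had bulk sites. That share includes genes that macrophages do not express, and the listed genes were chosen with earlier results known, so the shares are not a test. The list is not complete: it leaves out, for example, the proton pump subunit Atp6v0e, which is in the single-cell list. Atp6ap2, which assists the proton pump that acidifies lysosomes, had 9 bulk sites at 10.4 to 23.7% and 11 sites in single cells. Atp6ap1, which binds the same pump, had 3 bulk sites at 12.8 to 17.0%. Arl8b, the small GTPase that links lysosomes to kinesin, had 1 bulk site at 21.7%. The others with 1 bulk site each were Slc17a5, the sialic acid exporter (16.0%), Ostm1, a subunit of the lysosomal chloride transporter (15.0%), and Npc2, a carrier of cholesterol (10.8%). The Lamp2 site at 38421565, at 38.5%, was above the bulk sites of these 6 genes. It was not above every site of the lysosomal membrane, since Sppl2a, an intramembrane protease of late endosomes and lysosomes that the list leaves out, had a bulk site at 40.5%. Sppl2a and Atp6v0e are named here after their values were seen.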

How the data were processed

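Bulk libraries (directional, from polyA RNA) and single-cell libraries (C1 capture, SMARTer amplification) gave single-end reads of 100 nt. Trimming (Trim Galore 0.2.5), unique alignment to mm10 (TopHat2) and removal of duplicates (Picard) were done by the authors. For each bulk site the authors deposited a read count, called depth, and the edited fraction of those reads. For each site and cell they deposited only the edited fraction, so the precision of a cell's rate is unknown. Bulk sites were kept by the authors if absent from the knockout and past thresholds on coverage and on edited reads, away from repeats, splice junctions and known variants. The bulk depth and rate were taken as those of the wild-type library.

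Edited reads were recovered as depth times fraction, which was whole within 0.001 at 410 of 410 sites. Sites were placed on GRCm38 with GENCODE vM21 and RefSeq. An end was a set of overlapping last exons. Pairs of bulk sites and ends were tested with Fisher's exact test, and pairs over cells (at least 10 covered at both) with a sign-flip permutation test. It was exact up to 16 non-zero differences and otherwise used 100000 resamples. P-values were adjusted by Benjamini-Hochberg over the whole list. Procedures were tested on simulated data. For the sign-flip test a smaller share of the simulated differences was 0 than at the Lamp2 pairs, so the simulation does not cover that setting. Named are Lamp2, the 3 genes with the largest gaps between sites, the 3 most correlated with Lamp2 over cells, and listed lysosomal and autophagy genes. Members, lists and tests were chosen with earlier results of these data known. Python 3.11.15, NumPy 2.4.6, SciPy 1.17.1, pandas 2.3.3, pysam 0.24.0 and matplotlib 3.10.9 were used. Alternatives varied depth, edited reads, spacing, the definition of an end and uncovered cells.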

Additional observations from a re-analysis of the deposited data

How the results depend on the processing

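Of 29 alternatives tried, 24 kept their direction and their side of the threshold or moved by less than the SD over cells. The difference between the LAMP-2A and LAMP-2B ends (-0.778 points) changed sign, without being called, with the deepest site per end (5.18), with sites of at least 30 reads (3.56), with the LAMP-2A and middle groups set by gaps over 500 nt (1.45) and without the most edited site (1.45). All alternatives were chosen with earlier results of these data known, the grouping by gaps included. Leaving out the most edited site and counting only cells covered at all 5 sites were added after seeing the data. So was leaving out the highest cell at 38419766 and 38420548. Between the middle group and the site nearest the stop codon the difference was -26.4 points and was called. Each of the 4 settings that changed the sign left out that site, at 38421565. The 2 settings at 1.45 points compared the same reads. The cause of the high rate at 38421565 was not tested. Sites with at least 30 reads, with 3 edited reads or at least 100 nt apart gave 0 called Lamp2 pairs in bulk, and uncovered cells set to 0, or at least 15 shared cells, gave 0 over cells. The limit of 30 reads removed 38421565, which had 26 reads. The pairs without that site had an unadjusted p of 0.432 or more (Fisher's exact test), so this setting could call none. Leaving out each cell in turn moved the difference of cells minus bulk between -7.32 and -3.85 points at 38419589, between -7.35 and -5.50 at 38419800 and between -4.93 and 0.694 at 38420739. No paired analysis was possible because no groups with shared replicate numbers were compared. The tests within cells pair sites of a cell, not samples of 2 groups. Depth limits the bulk rates, at 20 to 67 reads a site, and is unknown for cells.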
